A study of Homo sapiens with 6 samples.

Results

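GATA3, PPARG and KRT19 are genes by which pathologists and molecular classifications recognise the luminal type of urothelial cell, and they were followed here in T24, an established human bladder carcinoma line, and in a chemoresistant strain derived from it. The 3 genes were taken by name from the deposited table of differences between the strains, in which they are 3 of 2462 listed genes. They were set beside the other listed genes whose names start with KRT, UPK or GATA, which with GATA3 and KRT19 came to 8 genes. The parental group was T24 (n = 3 libraries). The resistant group carries the label T24DDP (n = 3 libraries) and is called T24-R in the paper, which describes about a year of intermittent exposure of T24 to rising concentrations of cisplatin and gemcitabine with recovery in drug-free medium. The resistant strain was an outgrown population of surviving cells from 1 parental line and was not described as a clone. The labels do not say that the libraries of a group came from separate cultures, and p-values then measure only the spread between these libraries. The deposited table holds only genes that had passed the authors' own test of this comparison, so a gene outside it is called not listed, which does not say that it was equal in both strains.

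The urothelium is a layered epithelium in which basal cells carry keratins such as keratin 5 and keratin 14, while luminal and umbrella cells carry uroplakins and keratins such as keratin 19 and keratin 20. GATA3 is a zinc finger transcription factor that binds DNA at GATA motifs and is used as a marker of urothelial and luminal tumours. PPARG is a ligand-activated nuclear receptor that works as a dimer with a retinoid X receptor, directs lipid genes in fat cells and promotes the luminal programme in urothelium. KRT19 is a type I keratin, an intermediate filament protein that pairs with type II keratins such as keratin 8. In fat cell precursors, GATA2 and GATA3 are known to hold back PPARG transcription.

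PPARG and GATA3 have several annotated starts, and the table gives 1 value per gene, so these libraries do not say which start was used. RefSeq (GRCh38.p14) gave 6 start windows for PPARG and 6 for GATA3, each read here as the 250 bases upstream of the start. A GATA motif was searched as TGATAA or AGATAA on both strands. Either motif was present in 2 of the 6 PPARG windows and in 0 of the 6 GATA3 windows, and in 14.6% of all 34788 RefSeq start windows of the same length. The sequences given are the window of the most upstream PPARG start, the window of its most downstream start, which holds TGATAA 184 bases before the start, and the window of the most upstream GATA3 start. No annotated exon lies in the windows printed, which were chosen after the values of the genes had been seen. Capitals mark the GATA match, which is a description of the letters and not a site of binding.
PPARG, most upstream start, plus strand, chr3:12287118-12287367: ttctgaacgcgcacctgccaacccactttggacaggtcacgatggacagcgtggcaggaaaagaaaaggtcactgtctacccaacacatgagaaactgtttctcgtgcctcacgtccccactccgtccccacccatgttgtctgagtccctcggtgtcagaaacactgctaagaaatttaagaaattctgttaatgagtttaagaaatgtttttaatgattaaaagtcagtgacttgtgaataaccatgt
PPARG, most downstream start, plus strand, chr3:12351167-12351416: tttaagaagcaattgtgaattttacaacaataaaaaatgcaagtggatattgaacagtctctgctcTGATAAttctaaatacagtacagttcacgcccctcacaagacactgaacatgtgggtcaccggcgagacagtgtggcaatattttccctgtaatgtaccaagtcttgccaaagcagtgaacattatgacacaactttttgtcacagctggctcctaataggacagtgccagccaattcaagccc
GATA3, most upstream start, plus strand, chr10:8045083-8045332: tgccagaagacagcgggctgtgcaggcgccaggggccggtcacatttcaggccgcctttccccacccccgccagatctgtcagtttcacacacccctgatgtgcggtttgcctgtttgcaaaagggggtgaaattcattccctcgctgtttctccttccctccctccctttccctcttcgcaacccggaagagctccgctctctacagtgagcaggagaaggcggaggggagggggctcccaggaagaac
The repeat to which PPARG dimers bind, searched as 2 copies of AGGTCA with 1 base between them, was in none of these 12 windows and in 0.0115% of all windows. The CG dinucleotide occurred 8 times in the first PPARG window, 3 times in the last and 11 times in the GATA3 window, against a median of 11 over all windows. Both PPARG windows printed were thus below the median in CG content, and the GATA3 window printed was at it. The GATA3 windows not printed held 16, 15, 30, 26 and 4, so the value depends on the start taken. The PPARG windows not printed held 10, 9, 1 and 0.

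Values are scaled counts, which are the reads on a gene divided by 1 size factor per library. The size factors, a measure of relative depth, lay between 0.939 and 1.03 in T24 and between 1.00 and 1.08 in T24DDP, and the listed genes took 1170731 to 1411926 reads per library. The total depth is unknown. T24DDP replicate 3 stood apart: over 981 genes with a mean of at least 100, the SD of its log2 difference to the other 2 T24DDP libraries was 0.516 and 0.532, against 0.160 between those and 0.248 to 0.313 within T24, and the mitochondrial rRNA MT-RNR2 took 22.3% of its reads on listed genes against 9.33% and 9.36% in the other 2. That share was 3.23% to 3.37% in T24, so it was higher in every T24DDP library, and its part in the results was not tested. Values without T24DDP replicate 3 are given where they matter. The groups were compared with limma on log2(scaled count + 1) over all 2462 genes, with Benjamini-Hochberg adjustment, and a gene was called at an adjusted p under 0.05 and a log2 fold change beyond 1. Of the listed genes 98.3% were called, 69.2% higher and 29.2% lower in T24DDP, which follows from how the table was made. TMM, a scaling that takes most genes as equal and is not met by a table of selected differences, moved the median log2 fold change of all listed genes from 1.41 by -1.32 and turned the split of 1703 higher and 718 lower into 585 and 721.

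The 3 luminal genes did not move together. KRT19 went from a clear signal in T24 to the limit of detection in T24DDP, PPARG fell but kept an appreciable level, and GATA3 rose from the limit of detection. All 3 were called, 1 higher and 2 lower. Because listing already needed a difference in these libraries, nothing is read from that count.

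KRT19 (ENSG00000171345) lies on the minus strand of chromosome 17, from 41523617 to 41528308. Its scaled counts were 203, 171 and 148 in T24 and 0, 0 and 0.979 in T24DDP. In reads, this is 191, 167 and 153 against 0, 0 and 1. Every T24 library was far above every T24DDP library, and the single read in T24DDP was in replicate 3. The mean was 174 ± 27.8 (SD, n = 3) in T24 and 0.326 ± 0.565 (SD, n = 3) in T24DDP. The ratio of the pooled reads was 538, with an exact 95% counting interval of 96.1 to 21280 that covers counting error only. The fitted log2 fold change was -7.11 (standard error 0.35, limma adjusted p = 7.15e-07), and its size depends on the 1 added before taking logs. It ranked 7 from the lowest of all listed genes. Leaving out each library in turn gave -7.44 to -6.95, the former without T24DDP replicate 3. None of the exonic bases of KRT19 overlapped another gene, and 0.977% of its 50-base stretches occur elsewhere, all in the pseudogene KRT19P1. In these bulk libraries, fewer cells with KRT19 RNA and less of it per cell cannot be told apart.

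PPARG (ENSG00000132170) lies on the plus strand of chromosome 3, from 12287368 to 12434356. Its scaled counts were 1377, 1219 and 1249 in T24 and 363, 395 and 434 in T24DDP. The groups did not overlap, and the libraries of each group lay close together, T24DDP replicate 3 included. The mean was 1282 ± 84.4 (SD, n = 3) in T24 and 397 ± 35.3 (SD, n = 3) in T24DDP, 3.22-fold lower. The log2 fold change was -1.69 (standard error 0.11, 95% interval -1.95 to -1.43, limma adjusted p = 3.62e-06), and -1.75 without T24DDP replicate 3. No exonic base overlapped another gene, and other genes hold 0.830% of its 50-base stretches. The value is the sum over the isoforms counted for the gene.

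GATA3 (ENSG00000107485) lies on the plus strand of chromosome 10, from 8045378 to 8075203. Its scaled counts were 2.13, 3.06 and 0 in T24 and 35.9, 48.0 and 43.1 in T24DDP. In reads, T24 had 2, 3 and 0, and T24DDP had 36, 52 and 44. The T24DDP libraries were all above the T24 libraries, which were at or under 3 reads, the floor of detection used here. The mean was 1.73 ± 1.57 (SD, n = 3) in T24 and 42.3 ± 6.09 (SD, n = 3) in T24DDP. The ratio of the pooled reads was 25.1 (exact 95% counting interval 10.5 to 78.5). The log2 fold change was 4.21 (standard error 0.51, limma adjusted p = 6.77e-05), the largest standard error of the 3 genes. It was lowest, 3.59, without T24 replicate 3, which has 0 reads, and 4.19 without T24DDP replicate 3. GATA3 shared no exonic base with another gene and none of its 50-base stretches. The antisense gene GATA3-AS1 was not listed.

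For each of the 3 genes taken alone, an exact permutation test of 3 libraries against 3 gave a two-sided p = 0.1, the smallest that this design allows.

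**Figure D1:**
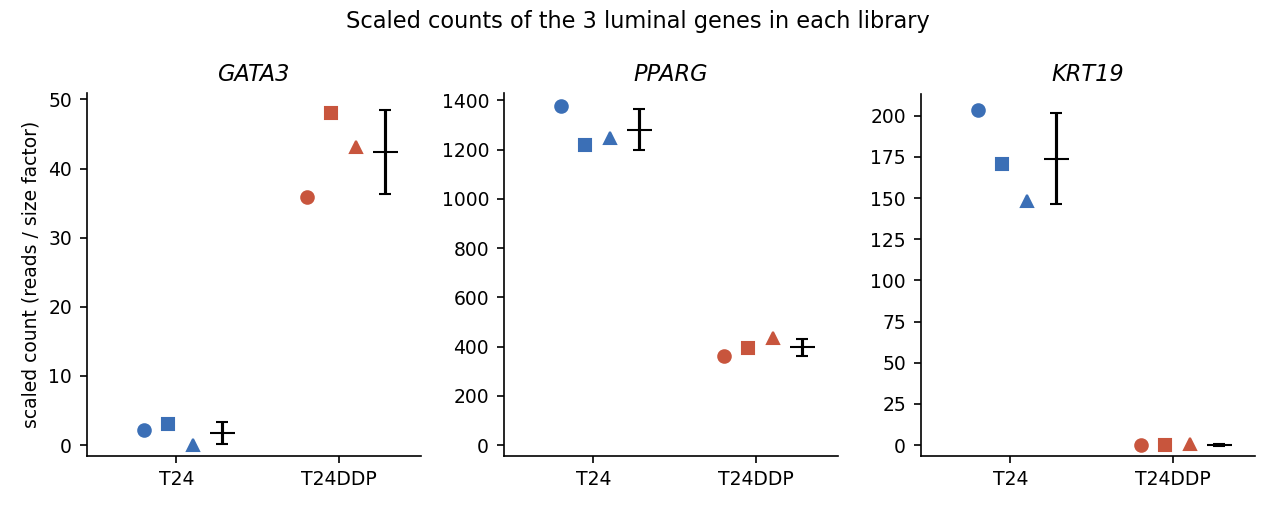
Scaled counts (reads divided by the library's size factor, linear axes) of GATA3, PPARG and KRT19 in T24 (blue) and T24DDP (red). Circles, squares and triangles are replicates 1, 2 and 3, and the black bars are the mean ± SD of 3 libraries. In no gene did the groups overlap, GATA3 being higher in T24DDP, PPARG and KRT19 lower. Nothing is read from the lack of overlap, because listing already needed a difference in these libraries.

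Levels of different genes were compared per length, as scaled counts per kilobase of the deposited gene length. In T24 the order was PPARG (268.7 to 304 per kilobase), KRT19 (63.4 to 87.0) and GATA3 (0 to 0.892). In T24DDP it was PPARG (80.1 to 95.7), GATA3 (10.5 to 14.0) and KRT19 (0 to 0.419). Neighbours in each order had no library in common range, so KRT19 and GATA3 exchanged places while PPARG stayed the most abundant of the 3. The level of PPARG depends on the length taken, 4535 bases as deposited. Over all 11981 exonic bases that GENCODE gives to its isoforms, a length chosen after seeing the data, PPARG stood at 102 to 115 per kilobase in T24 and at 30.3 to 36.2 in T24DDP, and both orders held. In T24, 324 listed genes had at most 3 reads in every library, and in T24DDP 76 had. GATA3 was one of the former and ranked 49 among them by its T24DDP mean. KRT19 was one of the latter and ranked 7 among them by its T24 mean.

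**Figure D2:**
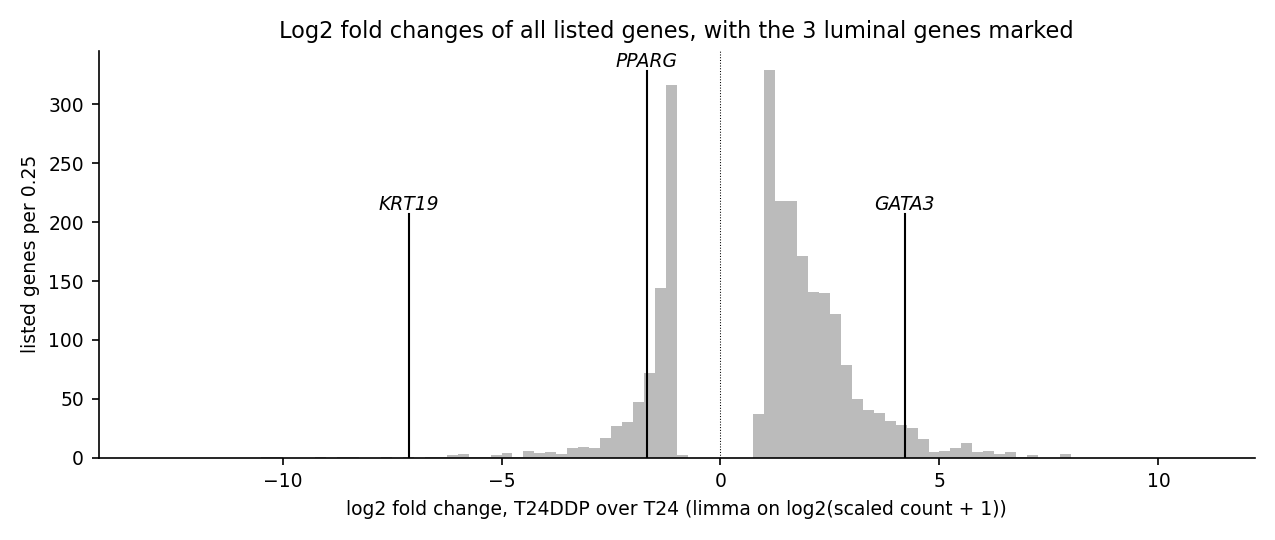
Number of listed genes (vertical axis, per 0.25 of log2 fold change) at each log2 fold change of T24DDP over T24 (horizontal axis), with the 3 genes marked by lines. The empty middle is the selection made by the authors, and PPARG at -1.69 lies in the dense part of the lower genes while KRT19 at -7.11 and GATA3 at 4.21 lie in sparse parts.

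For each gene, the 3 other listed genes with the most similar pattern over the 6 libraries were found by the Euclidean distance between centred log2(scaled count + 1) values, among 2093 other genes with a mean of at least 10. This is a description of likeness with no test, and the difference between the strains dominates it. PPARG was closest to TFRC (distance 0.203), the transferrin receptor, then to NTNG1, a netrin (0.225), and HECTD3, a ubiquitin ligase (0.241). TFRC had 9461, 9464 and 10265 in T24 and 2802, 2916 and 3450 in T24DDP. GATA3 was closest to NSG1 (0.581), with 2.13, 3.06 and 0 in T24 and 52.9, 43.4 and 38.2 in T24DDP, then to MUM1L1 (0.808) and to the homeobox gene MEIS3 (0.882). The T24 values of NSG1 equal those of GATA3 and lie at or under the floor of 3 reads, so that part of the likeness rests on very few reads. KRT19 was closest to CXorf57 (1.12), then to CHRDL1, an antagonist of bone morphogenetic proteins (1.13), and AL583856.1 (1.41). CXorf57 had 95.8, 87.9 and 100.7 in T24 and 0, 0 and 0.979 in T24DDP. The genes like KRT19 were thus ones that also lost nearly all reads in T24DDP, and none of the 9 genes carried a KRT, UPK or GATA name.

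The GATA factors share a zinc finger and a DNA motif. Besides GATA3, the table listed GATA2, a factor of blood progenitors and endothelium, and GATA4, a factor of heart and endoderm, while GATA1, GATA5 and GATA6 were not listed. GATA2 (ENSG00000179348, chromosome 3, 128479427 to 128493185) moved against GATA3. Its scaled counts were 506, 515 and 515 in T24 and 194, 205 and 139 in T24DDP, which gave -1.53 on the log2 scale (standard error 0.16, limma adjusted p = 3.03e-05). The lowest T24DDP library was replicate 3, and without it the value was -1.36. GATA4 (ENSG00000136574, chromosome 8, 11676959 to 11760002) had 35.1, 19.4 and 25.2 in T24 and 79.8, 96.1 and 65.6 in T24DDP, which gave 1.59 on the log2 scale (standard error 0.27, limma adjusted p = 0.00046). With TMM factors, GATA4 was no longer called (0.26), while GATA3 (3.20) and GATA2 (-2.88) kept their direction and call. Because TMM factors moved the median of all listed genes downward, nothing is read from the kept call of GATA2.

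Per kilobase, GATA2 was the most abundant of the 3 GATA genes in both strains, with a range of 113 to 115 in T24 and of 31.2 to 46.0 in T24DDP. GATA4 came next, with 4.37 to 7.91 in T24 and 14.8 to 21.6 in T24DDP. GATA3 was the lowest in both, with up to 0.892 in T24 and 10.5 to 14.0 in T24DDP, and its range did not meet that of GATA4 in either strain. The order of the 3 genes was therefore the same in T24 and T24DDP. GATA2 shares 1.59% of its exonic bases with GATA2-AS1 on the other strand, and GATA4 shares none with another gene.

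Among keratins, KRT19 was the only type I gene listed, and it was called lower in T24DDP. The 3 listed type II genes KRT80, KRT81 and KRT86 were called higher, as were 69.2% of all listed genes. Their median log2 fold change was 1.45, beside 1.41 over all listed genes. KRT80 encodes a keratin of epithelial cells and was by far the most abundant keratin in the table. It (ENSG00000167767, chromosome 12, 52168996 to 52192000) had 1250, 1185 and 1320 in T24 and 3829, 3775 and 4644 in T24DDP. All T24DDP libraries lay above T24, with a 3.26-fold higher mean, or 1.70 on the log2 scale (standard error 0.12, limma adjusted p = 4.02e-06). Per kilobase it stood at 272.4 to 303 in T24 and at 868 to 1067 in T24DDP. KRT8 and a KRT8 pseudogene hold 0.363% of its 50-base stretches.

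KRT81 and KRT86 encode hair keratins and lie on chromosome 12, KRT81 (ENSG00000205426) from 52285913 to 52291534 within the span of KRT86 (ENSG00000170442), from 52249300 to 52309163. KRT81 had 23.4, 39.8 and 36.8 in T24 and 126, 118 and 46.0 in T24DDP. Replicate 3 of T24DDP was just above the highest T24 library, and the difference of 1.41 on the log2 scale (standard error 0.40, limma adjusted p = 0.00701) became 1.87 without it. KRT86 had 23.4, 17.4 and 18.4 in T24 and 47.9, 58.2 and 60.7 in T24DDP, with no overlap, a difference of 1.45 on the log2 scale (standard error 0.23, limma adjusted p = 0.00033). Both are uncertain, because other genes hold 44.6% of the 50-base stretches of KRT81 and 41.5% of those of KRT86, mostly each those of the other, and 18.8% of the exonic bases of KRT86 overlap other genes. KRT8P5, a processed pseudogene of KRT8 on chromosome 18, had 0 reads in each T24 library and 2, 8 and 6 in T24DDP. It was at least 1.67-fold higher in T24DDP against a floor of 3 reads per library. KRT8P5 is also uncertain, because other genes, KRT8 among them, hold 7.88% of its 50-base stretches. Its call was lost with 10 added before taking logs (log2 fold change 0.58). KRT8 itself was not listed. With TMM factors none of the 3 type II keratins was called, and their log2 fold changes were 0.35 for KRT80, 0.086 for KRT81 and 0.14 for KRT86.

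Of the 8 listed genes whose names start with KRT, UPK or GATA, 6 were called higher and 2 lower in T24DDP, beside 69.2% and 29.2% of all listed genes. Their median log2 fold change was 1.52, or 1.43 with KRT8P5 at its bound, beside 1.41 over all listed genes. With TMM factors 2 were called higher and 2 lower. No uroplakin and no keratin-associated protein gene was listed. KRT5, KRT6A, KRT7, KRT8, KRT14, KRT17, KRT18 and KRT20, the keratins most used to separate luminal from basal cells, were not listed either.

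**Figure D3:**
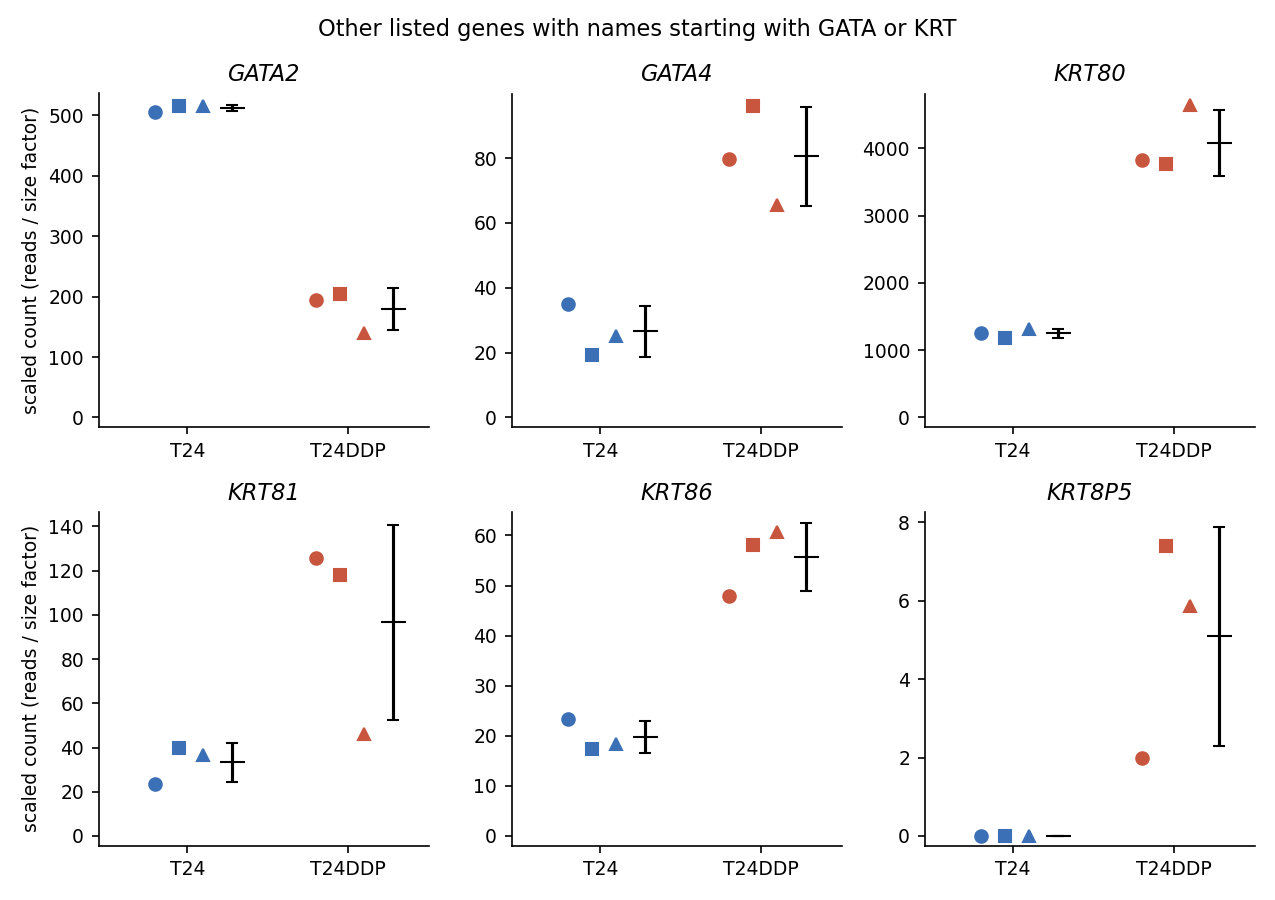
Scaled counts (linear axes) of the other listed GATA and KRT genes in T24 (blue) and T24DDP (red), with replicates 1, 2 and 3 as circles, squares and triangles and the mean ± SD of 3 libraries in black. GATA2 was lower in all T24DDP libraries and the other 5 genes were higher, with T24DDP replicate 3 of KRT81, at 46.0, close to T24. Nothing is read from the lack of overlap, because listing already needed a difference in these libraries.

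Beyond the 3 genes, 28 other luminal markers were looked up, and 3 of them were listed. CD24, a surface glycoprotein, was called higher in T24DDP, at 159 ± 17.2 (SD, n = 3) against 3.34 ± 2.40 in T24, or 5.37 on the log2 scale (standard error 0.42, limma adjusted p = 7.07e-06). FGFR3, a growth factor receptor often mutated in luminal tumours, was called higher, at 29.6 ± 1.27 against 11.2 ± 0.532, although TMM factors brought its log2 fold change from 1.33 to 0.048. FABP4, a fatty acid binding protein and a textbook target of PPARG, was called lower, at 3.23 ± 0.662 against 14.6 ± 4.47, a log2 fold change of -1.85. Its scaled counts were 19.2, 10.2 and 14.5 in T24 and 3.99, 2.77 and 2.94 in T24DDP. With the 3 genes included, the luminal list thus had 3 genes higher and 3 lower, beside 69.2% and 29.2% of all listed genes. Its median log2 fold change was -0.18, beside 1.41 over all listed genes. Without GATA3, PPARG and KRT19, the median of the other 3 was 1.33. FOXA1, ELF3, GRHL3, ERBB2, ERBB3 and KRT20 were among the 25 that were not listed.

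Of 33 basal and squamous markers, 4 were listed and all 4 were called higher in T24DDP, where 69.2% of all listed genes were. Their median log2 fold change was 3.14. NGFR, the low-affinity nerve growth factor receptor, had 0 reads in T24 and 93.7 ± 25.3 (SD, n = 3) in T24DDP, at least 30.7-fold higher. It is uncertain, as 27.2% of its exonic bases overlap genes on the other strand. CDH3, P-cadherin, had 2 pooled reads in T24 and 48 in T24DDP, a ratio of 22.8 (exact 95% counting interval 5.98 to 194). JUP, the desmosomal protein plakoglobin, lies 226 kb from KRT19 and moved the opposite way, from 312 ± 19.0 in T24 to 2458 ± 65.8 in T24DDP (log2 fold change 2.98). PI3, a protease inhibitor, had a log2 fold change of 1.67. With TMM factors NGFR, CDH3 and JUP were called, and PI3 was not (0.37).

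Of 42 partners and targets of PPARG, 9 were listed, 7 called higher and 2 lower, with a median log2 fold change of 1.51, beside 69.2% higher, 29.2% lower and a median of 1.41 over all listed genes. The 2 lower genes were fatty acid binding proteins. FABP5 had 2353 ± 231 (SD, n = 3) in T24 and 1174 ± 110 in T24DDP, just past the threshold on the log2 scale, and its call was lost without T24DDP replicate 3 or without T24 replicate 1 (log2 fold change -0.93 in both). FABP5 is also uncertain, because other genes, mostly its pseudogenes, hold 20.1% of its 50-base stretches. FABP4 is the other, given above. Both were lower in T24DDP, as PPARG was. Both were also called lower with TMM factors. These moved the median of all listed genes by -1.32, so nothing is read from those calls. With 10 added before taking logs, neither was called (-0.88 for FABP4 and -0.996 for FABP5).

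The genes of this list that were higher included ones that other PPAR family members are also known to drive. Any part of those members in these values was not tested. ANGPTL4, a secreted inhibitor of lipoprotein lipase, rose from 53.3 ± 4.49 (SD, n = 3) in T24 to 490.1 ± 138 in T24DDP (log2 fold change 3.14, limma adjusted p = 4.25e-06). CPT1A, which brings fatty acids into mitochondria, rose from 395 ± 12.7 to 2097 ± 493 (log2 fold change 2.38). PPARGC1A, a coactivator that binds PPARG, had 0 reads in each T24 library and 13, 12 and 20 in T24DDP, at least 4.76-fold higher. PLIN4, CEBPA, UCP2 and NR1H3 had log2 fold changes of 1.03 to 1.72 and were not called with TMM factors, which turned UCP2 to -0.026 and NR1H3 to -0.32. NR1H3 was also lost without T24DDP replicate 3 (0.98) or T24 replicate 3 (0.95), and 43.9% of the exonic bases of CEBPA overlap genes on the other strand. PPARA, PPARD, RXRA, RXRB and RXRG were not listed. Of 9 partners of GATA3, ZFPM1, a cofactor of GATA factors, was the only one listed. It had a log2 fold change of 1.07, which fell to 0.94 without T24 replicate 3 and to -0.28 with TMM factors.

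Of 29 genes of epithelial junctions and epithelial identity, 9 were listed, 7 called higher and 2 lower in T24DDP, with a median log2 fold change of 2.13, where the table as a whole had 69.2%, 29.2% and 1.41. ESRP1, a splicing factor of epithelial cells, rose from 12.2 ± 1.60 (SD, n = 3) to 144 ± 11.4 (log2 fold change 3.46), while its paralog ESRP2 fell from 60.8 ± 6.75 to 21.5 ± 5.98 (-1.49). CLDN7, a tight junction claudin, was the other lower gene, with 46 pooled reads in T24 and 5 in T24DDP, a ratio of 9.68 (exact 95% counting interval 3.86 to 31.2). Other genes overlap 12.3% of the exonic bases of CLDN7 and 15.3% of those of SPINT2. TJP3, ST14, SPINT2, OVOL2, OCLN and MARVELD2 had log2 fold changes of 1.17 to 2.79. SPINT2, at 3886, 3590 and 1955 in T24DDP, was lowest in T24DDP replicate 3 and above every T24 library in all 3. The call of MARVELD2 was lost without T24 replicate 2 (0.94). With TMM factors only ESRP1, TJP3 and SPINT2 stayed called higher, and MARVELD2 turned negative (-0.17). CDH1, EPCAM and GRHL2 were not listed.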

How the data were processed

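RNA of 3 T24 and 3 T24DDP libraries was sequenced by the authors. The paper names fastp, HISAT2, GRCh38, featureCounts and DESeq2. The labels name a mouse build and retinas, which human gene identifiers contradict, so the paper was followed. The annotation version and strand setting are not given in the sources used here. The signal values the authors deposited are gene counts divided by 1 size factor per library. Their deposited group means, log2 fold changes and p-values were not used, nor is any number taken from them. Every value was a whole multiple of 1 step per library (100% within 0.001 of a read), which gave reads and size factors. In T24DDP replicate 1 that step is close to 1 (size factor 1.00), although its values are not whole.

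The members and gene lists were chosen with earlier results of these data known. limma 3.58.1 in R 4.3.3 (lmFit, eBayes with trend) was fitted on log2(value + 1). The named genes were the 3 genes, all listed KRT, UPK and GATA genes, listed genes of the lists (luminal, basal and squamous, PPARG partners and targets, GATA3 partners, epithelial junction, mesenchymal, other cell types, neuroendocrine) and the 3 nearest patterns per gene. Alternatives were other added constants, a mean of at least 10, TMM, no trend, edgeR 4.0.16 and DESeq2 1.42.0 on the reads, a replicate block, leaving out each library and, added after seeing the data, another gene length. The code was tested on simulated data. Of the identifiers, 2441 matched GENCODE version 44, which gave exon overlaps and shared 50-base stretches. Intervals and floors cover counting error only, as reads carry no molecular identifiers. No RefSeq start window was used for KRT19. Of the lists, 2 genes are not reported here and are left out of the counts.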

Additional observations from a re-analysis of the deposited data

How the results depend on the processing

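GATA3, PPARG and KRT19 kept their direction and their call in all 14 alternative fits. Their log2 fold changes ranged over these from 2.16 to 5.57, from -3.04 to -1.63 and from -9.61 to -4.15. For GATA3 and KRT19 the extremes came with 10 and 0.1 added before taking logs, since 1 group was near 0 reads. For PPARG the lowest came with TMM factors. Because these moved the median of all listed genes downward, nothing is read from the kept calls of PPARG and KRT19 in that fit. The number of all listed genes called was 2199 to 2366 with each library left out and 1306 with TMM factors, against 2421. With 10 added, 1771 of 2462 were called, 1208 higher and 563 lower. With a mean of at least 10, 2053 of 2094 genes tested were called. TMM factors called 4 of the 8 KRT and GATA genes, 3 of 4 basal and squamous genes, 5 of 9 PPARG partners and targets, 5 of 9 epithelial genes, 1 of 2 genes of other cell types and 0 of 1 GATA3 partner. With 10 added, 4 of the 9 PPARG partners and targets, all higher, and 1 of the 2 genes of other cell types were called, and with a mean of at least 10 also 1 of the 2. Leaving out libraries gave 0 to 1 for the GATA3 partner. TMM factors reversed NR1H3 (1.03 to -0.32), UCP2 (1.33 to -0.026), ZFPM1 (1.07 to -0.28), MARVELD2 (1.17 to -0.17) and ACTA2 (1.29 to -0.035). The same rescaling shifted the median over the whole table by -1.32. Any cause particular to these genes was not tested. Whether equal replicate numbers pair the libraries is not known. The deviations of same-numbered libraries correlated at 0.34, 0.079 and 0.39 over 981 genes, and those of other pairs at -0.39 to 0.28. Each T24 library correlated highest with its same-numbered T24DDP library, replicate 2 only by little (0.079 against 0.072 with T24DDP replicate 1). The replicate block called 2423 genes. Depth limits GATA3 in T24 and KRT19 in T24DDP, where 5 and 1 pooled reads were counted.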

Other observations

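Markers of other cell states were looked up beside the luminal and basal genes. Of 24 mesenchymal genes, 4 were listed, 3 called higher and 1 lower in T24DDP, beside 69.2% and 29.2% of all listed genes. FN1, fibronectin, rose from 15391 ± 1917 (SD, n = 3) in T24 to 107974 ± 20543 in T24DDP, a limma log2 fold change of 2.80. COL1A1, a fibrillar collagen chain, rose from 33.5 ± 12.8 to 188 ± 39.6 (2.49), and ACTA2, smooth muscle actin, from 32.1 ± 4.18 to 80.1 ± 10.8 (1.29, and -0.035 with TMM factors). Other genes cover 36.2% of the exonic bases of ACTA2, so its value is uncertain. S100A4, a calcium-binding protein, fell from 53.2 ± 2.79 to 24.8 ± 13.1 (-1.20), and the call was lost without T24DDP replicate 3 (-0.81). VIM, CDH2, ZEB1, SNAI2 and TWIST1 were not listed. Of 12 genes that mark blood, endothelial or muscle cells, PECAM1 and CD34, both of endothelium and the latter of blood progenitors, were called higher in T24DDP, with means of 27.6 ± 5.92 and 8.39 ± 3.54, against 1.74 ± 2.23 and 1.34 ± 0.516 in T24. The call of CD34 was lost with TMM factors (log2 fold change 0.96, limma adjusted p = 0.0553) and with 10 added (0.68). PTPRC, CD68, HBB and VWF were not listed. None of 8 neuroendocrine markers was listed.

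The nearest listed genes along the chromosome, 2 on each side, were looked up after the values of the 3 genes had been seen. All 4 around GATA3, namely PRKCQ-AS1, SFMBT2, SFTA1P and USP6NL, at 634 to 3379 kb, were called higher, with log2 fold changes of 1.11 to 5.44, where 69.2% of all listed genes were called higher. The value of 5.44 is that of PRKCQ-AS1, whose mean was 0 in T24 and 43.4 in T24DDP, so its size depends on the 1 added before taking logs. Around PPARG, CAND2 at 362 kb was called lower (-1.65), and IRAK2, NUP210 and AC022007.1 were called higher. Around KRT19, HAP1 at 189 kb and JUP at 226 kb were called higher (2.07 and 2.98), as was GSDMB, and AC009283.1 was called lower (-1.61). No test was made of these directions.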
